A study of Mus musculus with 15 samples.

Results

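The genes of the proteasome were followed in 1 class of cortical neuron as it matured after birth. A gene belonged to the set if its symbol was Psma, Psmb, Psmc, Psmd, Psme, Psmf or Psmg followed by a number, and 49 of the 18193 genes with a probe set of their own on the array did so. Each gene was read from the probe set with the highest mean over the 15 arrays, in log2 units. It was tested if that probe set exceeded 5, taken as the limit between signal and background, in at least 3 arrays, which 45 of the 49 genes did, among 9663 genes in all. The symbol rule also took in Psmc3ip, a meiotic recombination factor, and Psme3ip1, which binds an activator of the proteasome. Neither is a subunit, and they are kept apart below.

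The cells were GFP-positive interneurons of the G42 mouse line, picked by hand from dissociated slices of primary somatosensory cortex. All 15 animals carried the G42 transgene, in which regulatory sequence of Gad1 drives GFP mainly in parvalbumin-class, fast-spiking cells, so the arrays cover only cells in which the transgene is on. Groups were 3 animals each at postnatal days (P) 7, 10, 15, 25 and 40, the last reaching day 45, with 1 array per animal, no treatment, and 23 to 85 cells behind each array. The labels used here state neither strain background nor sex. The comparisons ask when, during the weeks in which these neurons acquire their adult properties, the transcripts of each proteasome part changed.

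The proteasome degrades proteins that carry ubiquitin chains. Its 20S core is a stack of rings, with outer rings of alpha subunits that gate the pore and inner rings of beta subunits, of which Psmb5, Psmb6 and Psmb7 encode the proteolytic sites. The 19S cap recognises the ubiquitin chain, removes it and threads the substrate inwards with a ring of ATPases (Psmc genes). Other activators (Psme genes) can bind the core in its place, and dedicated chaperones assemble each part. In neurons the complex also acts at synapses, where it adjusts the supply of receptors and scaffold proteins.

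The promoters of 5 genes on which the results turn are shown first, each from 250 bases before to 50 bases after the annotated start, read 5′ to 3′ along the gene from RefSeq on the mouse build GRCm38.p6. They are Psmc5, Psmc1, Psmb5 and Psme3, which were higher at P40 than at P7, and Psmg4, which was lower. Capitals mark matches to 4 motifs searched on both strands: the core of the antioxidant response element, TGACNNNGC, which Nrf1 and Nrf2 bind, the ETS motif CCGGAAG, the CCAAT box CCAAT and the GC box GGGCGG. Psmc5 is at chr11:106255935-106256234 on the plus strand, Psmc1 at chr12:100109952-100110251 on the plus strand, and Psmb5 at chr14:54617946-54618245 on the minus strand. Psme3 is at chr11:101315963-101316262 and Psmg4 at chr13:34162714-34163013, both on the plus strand.
Psmc5: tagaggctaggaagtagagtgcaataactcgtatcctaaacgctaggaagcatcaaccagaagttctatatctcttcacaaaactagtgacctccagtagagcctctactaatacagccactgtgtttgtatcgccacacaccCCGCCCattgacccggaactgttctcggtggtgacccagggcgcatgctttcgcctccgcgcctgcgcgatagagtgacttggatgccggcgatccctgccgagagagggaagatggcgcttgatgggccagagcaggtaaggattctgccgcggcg
Psmc1: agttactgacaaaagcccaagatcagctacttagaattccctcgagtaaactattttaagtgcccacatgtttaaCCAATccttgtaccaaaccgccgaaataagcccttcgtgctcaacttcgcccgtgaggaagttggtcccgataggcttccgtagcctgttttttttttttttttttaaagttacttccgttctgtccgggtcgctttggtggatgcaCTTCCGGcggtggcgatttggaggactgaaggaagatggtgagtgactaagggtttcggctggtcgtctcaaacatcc
Psmb5: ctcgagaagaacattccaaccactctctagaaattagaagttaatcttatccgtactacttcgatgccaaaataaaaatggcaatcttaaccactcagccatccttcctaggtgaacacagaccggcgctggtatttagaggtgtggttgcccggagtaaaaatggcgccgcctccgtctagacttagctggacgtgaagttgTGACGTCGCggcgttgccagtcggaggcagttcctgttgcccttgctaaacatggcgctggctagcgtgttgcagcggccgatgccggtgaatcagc
Psme3: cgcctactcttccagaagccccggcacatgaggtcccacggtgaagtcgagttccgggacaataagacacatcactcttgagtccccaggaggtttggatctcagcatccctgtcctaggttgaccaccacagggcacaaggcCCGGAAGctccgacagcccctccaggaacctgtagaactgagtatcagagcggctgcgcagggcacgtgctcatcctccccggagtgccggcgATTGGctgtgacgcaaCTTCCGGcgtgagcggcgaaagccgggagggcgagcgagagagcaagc
Psmg4: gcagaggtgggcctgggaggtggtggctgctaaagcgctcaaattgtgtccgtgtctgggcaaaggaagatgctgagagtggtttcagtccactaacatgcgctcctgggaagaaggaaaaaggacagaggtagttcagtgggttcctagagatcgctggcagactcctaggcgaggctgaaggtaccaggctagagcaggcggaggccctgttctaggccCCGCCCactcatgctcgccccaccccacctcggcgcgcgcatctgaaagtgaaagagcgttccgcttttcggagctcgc

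Psmc5 and Psmg4 each hold a GC box, on the opposite strand, with its first base at -107 and -29 from the start. Psmc1 holds a CCAAT box at -175 and an ETS match on the opposite strand at -28. Psmb5 holds the only match to the antioxidant response element core among the 5, at -47. Psme3 holds ETS matches at -107 and at 3 and an inverted CCAAT box at -14. Of the 47 members that act in the proteasome, 39 had a promoter in the table. The ETS motif was present in 14 of these 39 (35.9%) and in 9.93% of all 27025 genes with a promoter there. Those 27025 were not limited to genes tested on the arrays. The ETS motif was found in 9 of 14 cap genes (Psmc1, Psmc2, Psmc6, Psmd2, Psmd4, Psmd6, Psmd11, Psmd12 and Psmd13) and in 1 of 11 core genes, Psma6. The GC box was in 22 of the 39 (56.4%, against 38.2% of all genes with a promoter) and the CCAAT box in 14 (35.9%, against 41.1%). The antioxidant response element core was in 6 (15.4%, against 13.99%). Those 6 were Psmb5, Psmb6, Psmc6, Psmd9, Psmd12 and Psme4, of which Psmb5 and Psmd12 were called higher at P40. Of the 10 genes called higher, only 7 had a promoter in the table, and 4 of these 7 held the ETS motif. It was in 0 of 2 promoters of genes called lower and in 10 of 27 of genes not called. These are matches of letters, given as a description.

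The markers of parvalbumin interneurons were present, with 10 of 12 above 5 on all arrays, but Pvalb itself exceeded 5 on 12 arrays and averaged 3.62 at P7. Markers of excitatory neurons were at or under 5 on all arrays for 6 of 7 genes, those of microglia for 9 of 11 and those of endothelial and mural cells for 8 of 8, but those of astrocytes for only 2 of 8 and those of the oligodendrocyte lineage for 5 of 8. A measure of RNA integrity differed between the ages. The gap between the 3′ and 5′ beta-actin controls was 4.64 to 6.41 at P7 and 3.40 to 4.50 at P40, with no overlap. On P15 replicates 2 and 3 the spiked hybridization controls had medians of 2.50 and 2.45, against at least 9.28 on the other arrays. Fewer cells were picked at P15 (23 to 45) than at P7 (52 to 85) or P10 (47 to 72). The actin gap was 5.34 to 6.09 at P10, and 5.97, 3.99 and 3.54 on P15 replicates 1, 2 and 3.

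Most proteasome transcripts were well above background at every age. Of the 45 tested genes, 43 (95.6%) exceeded 5 on all 15 arrays, against 78.4% of all genes tested. The 4 genes that stayed at or under 5 on all arrays were Psma8, the alpha subunit of germ cells, Psmb11, the beta subunit of the thymus, and Psmb8 and Psmb9, inducible beta subunits of the immunoproteasome. Psmb8 read 3.33 to 4.004 and Psmb9 2.43 to 2.57 over the 15 arrays. The age means of the set spanned a smaller range than those of all genes tested. The median range of the 5 age means was 0.700 on the log2 scale, against 1.13 over all genes tested, and the range was under 1 in 29 of 45 genes (64.4%, against 43.2%). The median absolute difference between P40 and P7 was 0.404, against 0.781. The median SE of that difference was also smaller, 0.252 against 0.350.

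Between P7 and P40, 10 proteasome genes rose, 3 fell and 32 did not pass (limma, adjusted p under 0.05 over all 9663 genes). Of all genes tested, 27.5% rose and 17.6% fell. In either direction 13 of 45 members (28.9%) were called, against 45.2% of all genes. The rises were the 19S ATPases Psmc5, Psmc1 and Psmc3, the ubiquitin receptor Psmd4, the lid subunits Psmd8 and Psmd12, the catalytic core subunits Psmb5 and Psmb7, the activator Psme3 and the chaperone Psmg2. The falls were the core subunit Psmb3, the chaperone Psmg4 and Psmc3ip. With the actin 3′ minus 5′ difference as a covariate, Psmc5 and Psme3 were the only rises still called, Psmb3 was no longer called, Psme1 was called lower, and 27.4% of all genes were called. With the number of cells picked as a covariate, 4 of the 10 rises (Psmc5, Psmd4, Psme3 and Psmb5) and all 3 falls were called. Of all genes, 36.6% were called with that covariate. Age, RNA quality and cell number move together in these samples and cannot be fully told apart. In such samples, fewer cells of a type and less RNA per cell cannot be told apart either.

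**Figure D1:**
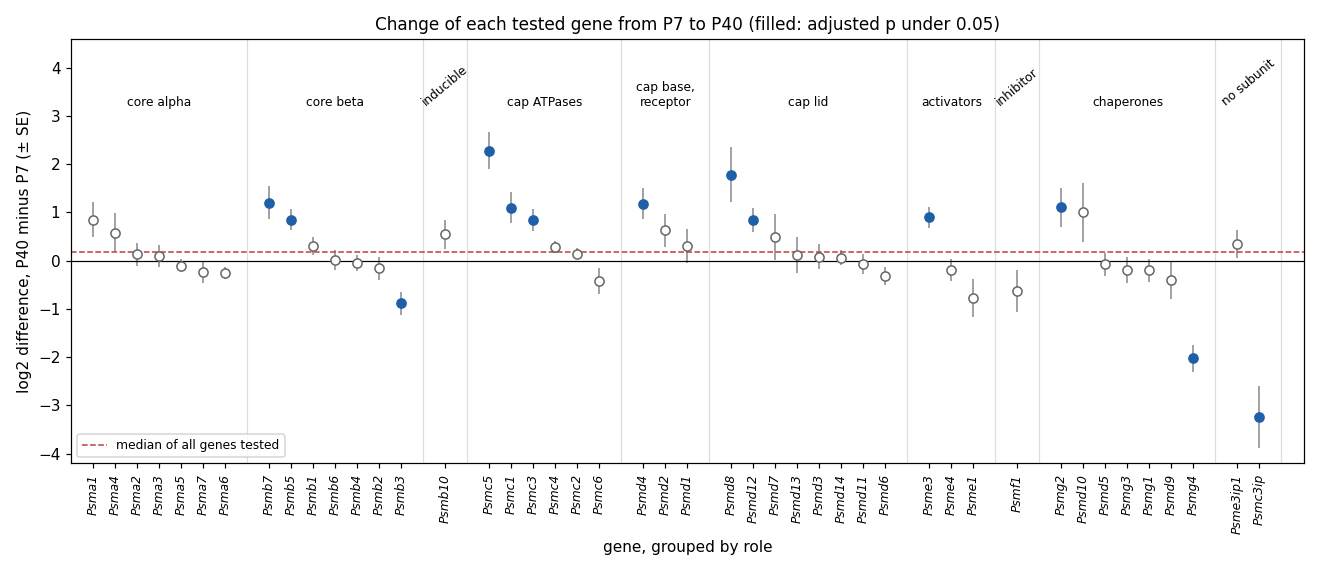
Log2 difference between P40 and P7 for the 45 tested genes, ordered by role (bars: moderated SE from limma, 3 animals an age), with the median of all genes tested (0.177) dashed. Filled points are the 13 genes called. All 6 called genes of the 19S cap lie above 0, the 7 alpha subunits include no called gene, and the lowest points are Psmc3ip (-3.24) and Psmg4 (-2.03).

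On the probe sets used, the 20S core moved little as a whole. Of its 14 tested genes, 2 rose and 1 fell, and the median difference was 0.06 on the log2 scale, below the median of all genes tested, 0.18. Other probe sets gave 0.43 for Psma5, 0.65 for Psma7 and 0.45 for Psmb4, where those used gave -0.10, -0.23 and -0.04. They gave 0.38 and -0.23 for Psma6, -1.67 for Psmb1 and -0.17 for Psmb3. With the mean of probe sets the core median was 0.08. None of the 7 alpha subunits was called in either direction by limma, and 1 of them, Psma1, had an unadjusted p under 0.05. Their differences ran from -0.26 for Psma6 to 0.85 for Psma1 (SE 0.37, limma adjusted p = 0.0721). Psma1 read 11.59, 10.66 and 9.65 on the P7 arrays and 11.68, 11.38 and 11.39 on the P40 arrays, so a spread of almost 2 units at P7 met a narrow P40 group and the ages overlapped. It was called with array weights and, at 1.33, without P7 replicate 1. Psma6 was called lower with equal array medians (-0.475) and without P40 replicate 2 (-0.39). The steadiest alpha subunit by end-to-end difference was Psma3, at 13.10, 12.66 and 12.18 at P7 and 12.90, 12.59 and 12.75 at P40 (difference 0.10, SE 0.22).

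Among the 7 constitutive beta subunits, 2 of the 3 catalytic genes rose and 1 structural gene fell. Psmb5, which encodes the chymotrypsin-like site, read 12.41, 11.56 and 12.15 at P7, 11.70, 12.09 and 12.34 at P10, 12.45, 13.02 and 12.73 at P15, 12.68, 12.33 and 12.62 at P25, and 12.97, 12.86 and 12.85 at P40. The P40 arrays all lay above the P7 arrays, a rise of 1.80-fold (log2 0.85, SE 0.22, limma adjusted p = 0.00619). Psmb7, which encodes the trypsin-like site, read 10.01, 9.07 and 9.38 at P7 and 10.75, 10.95 and 10.37 at P40, again without overlap (2.30-fold, log2 1.203, SE 0.35, limma adjusted p = 0.0115). Its call was lost without P7 replicate 2, where the difference was 0.995. Psmb6, which encodes the caspase-like site, read 12.85, 12.74 and 12.29 at P7 and 12.51, 12.78 and 12.64 at P40, with a difference of 0.014 (SE 0.21, limma adjusted p = 0.964). Differences between the 3 courses were not tested.

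Psmb3, a structural beta subunit, was the only 20S core gene that fell. It read 13.49, 14.47 and 14.35 at P7, 14.46, 13.87 and 13.60 at P10, and 13.07, 13.31 and 13.28 at P40 (1.84-fold lower, log2 -0.88, SE 0.24, limma adjusted p = 0.00745). The 3 P40 arrays lay below the 3 P7 arrays. Its other probe set, at 10.2 at P7, gave -0.17, and the mean of its probe sets gave -0.53, which did not pass. Psmb1, Psmb2 and Psmb4 were not called, with differences of 0.31, -0.16 and -0.04.

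Psmb10 is the inducible subunit that replaces Psmb7 in the immunoproteasome, and it was the only gene of that group above background. It read 9.59, 9.20 and 9.47 at P7, 10.07, 11.10 and 10.28 at P15, 10.02, 9.03 and 9.48 at P25 and 9.78, 10.13 and 9.99 at P40. The 3 P15 arrays lay above the P7 arrays, and the highest value was P15 replicate 2, 1 of the arrays with low spiked controls. Psmb10 differed over the ages by limma's moderated F test (adjusted p = 0.0380), but between P7 and P40 its difference of 0.55 did not pass (SE 0.31, adjusted p = 0.160).

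Of the 17 genes of the 19S cap under the symbol rule, 6 rose (35.3%, against 27.5% of all genes tested), none fell by limma, whether at an adjusted or an unadjusted p under 0.05, and the median difference was 0.30 on the log2 scale. Sem1, a lid subunit whose symbol lies outside the rule, fell and is given with the partners. Of the 6 rises, 1 was called with the actin covariate, 2 with the cells covariate and 3 without P7 replicate 3. Over all genes tested the 2662 rises became 1368, 2079 and 2212 there. Psmc6 was called lower with equal array medians (-0.64) and Psmd6 with array weights (-0.46). The median became 0.085 with equal array medians and 0.14 with the actin covariate. The cap average, taken as the mean deviation of its genes from their own 15-array means, was -0.09, -0.31 and -0.45 on the P7 arrays and 0.34, 0.23 and 0.23 on the P40 arrays. The same average for the 20S core was 0.15, -0.16 and -0.24 at P7 and 0.09, 0.11 and 0.05 at P40. Over all genes tested it was 0.01, -0.15 and -0.25 at P7 and 0.02, 0.15 and 0.06 at P40. The arrays of P7 and P40 were thus apart for the cap and overlapped for the core. Over all genes tested they were apart too, with 0.006 the highest at P7 and 0.021 the lowest at P40. The difference between cap and core was not tested.

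**Figure D2:**
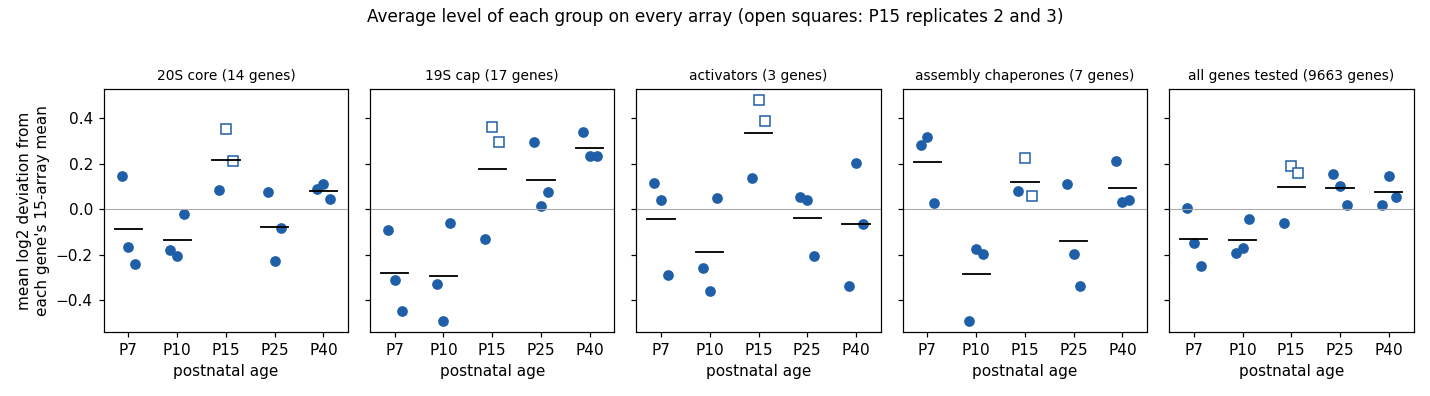
Mean log2 deviation of each group's genes from their own 15-array means, on every array, by age (points: arrays, 3 an age; lines: age means; open squares: P15 replicates 2 and 3, whose spiked controls were low). The cap goes from between -0.45 and -0.09 at P7 to between 0.23 and 0.34 at P40. The core averages of P7 and P40 overlap, and those of all genes tested do not (up to 0.006 and from 0.021).

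Psmc5, an ATPase subunit of the cap base, had the largest rise of the set. It read 10.09, 8.80 and 9.87 at P7, 8.91, 9.55 and 10.32 at P10, 10.69, 11.50 and 11.65 at P15, 11.75, 11.67 and 11.46 at P25, and 12.26, 11.64 and 11.69 at P40. All 9 arrays from P15 on lay above all 6 arrays of P7 and P10. The rise was 4.85-fold (log2 2.28, SE 0.38, limma adjusted p = 0.000254), and with the actin covariate it was 1.60 on the log2 scale (adjusted p = 0.0139). Its call was kept in all 26 alternatives, with a highest adjusted p of 0.0139 among them.

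Psmc1, the ATPase subunit Rpt2, read 10.06, 10 and 9.36 at P7 and 10.90, 10.93 and 10.89 at P40. The P40 arrays lay within 0.1 of each other, above all P7 arrays (log2 difference 1.10, SE 0.33, limma adjusted p = 0.0135). Its call was lost without P7 replicate 3 (0.88), and the mean of its probe sets, which takes in 1 at background, gave 0.51. Psmc3, the ATPase subunit Rpt5, read 12.15, 11.25 and 11.45 at P7 and 12.46 on each P40 array (log2 difference 0.85, SE 0.23, limma adjusted p = 0.00831). The other 3 ATPases, Psmc2, Psmc4 and Psmc6, gave 0.14, 0.29 and -0.42 and did not pass. Their other probe sets above 5 gave 0.87 for Psmc2, 0.95 for Psmc4, and 0.53 and 0.85 for Psmc6. Psmc4 was called higher with the mean of probe sets (0.62), without P7 replicate 1 (0.37) and without P10 replicate 1 (0.29). Psmc4 differed over the ages by the moderated F test of limma (adjusted p = 0.0153): it read 13.41, 13.25 and 13.11 at P7 and 13.76, 13.62 and 13.75 at P25, a shift of under 0.5 on the log2 scale with little spread.

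In the cap base, Psmd4, the ubiquitin receptor Rpn10, read 11.42, 10.45 and 11.13 at P7, 11.03, 12.07 and 11.93 at P15 and 12.35, 11.97 and 12.23 at P40. The P40 arrays all lay above the P7 arrays (2.27-fold, log2 1.18, SE 0.33, limma adjusted p = 0.00842), and its other probe set gave 1.11. The mean of all its probe sets, which takes in 1 at background, gave 0.70 and did not pass. The scaffold subunits Psmd1 and Psmd2, which hold the ubiquitin receptors and shuttle factors, did not pass, at 0.30 (SE 0.35) and 0.63 (SE 0.34).

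In the lid, the part that includes the deubiquitinase, 2 of 8 genes rose. Psmd8, the lid subunit Rpn12, read 8.38, 8.56 and 5.98 at P7 and 8.98, 9.82 and 9.48 at P40 (log2 difference 1.79, SE 0.58, limma adjusted p = 0.0207). P7 replicate 3 stood far below the other P7 arrays. Without it the difference was 0.96 and the call was lost, and it was also lost without P40 replicate 2 (1.59) or P40 replicate 3 (1.76). Psmd12, the lid subunit Rpn5, read 11.80, 11.48 and 11.29 at P7 and 12.78, 12.20 and 12.14 at P40 (log2 difference 0.85, SE 0.25, limma adjusted p = 0.0130). Its call was lost without P7 replicate 3 (0.73) or P40 replicate 1 (0.64). The deubiquitinase Psmd14 had the smallest difference, 0.07 (SE 0.16), with all 15 arrays between 11.96 and 12.43. The other 5 lid genes lay between -0.32 for Psmd6 and 0.49 for Psmd7, whose P25 replicate 2 read 7.43 against 9.33 and 9.34 on the other P25 arrays.

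**Figure D3:**
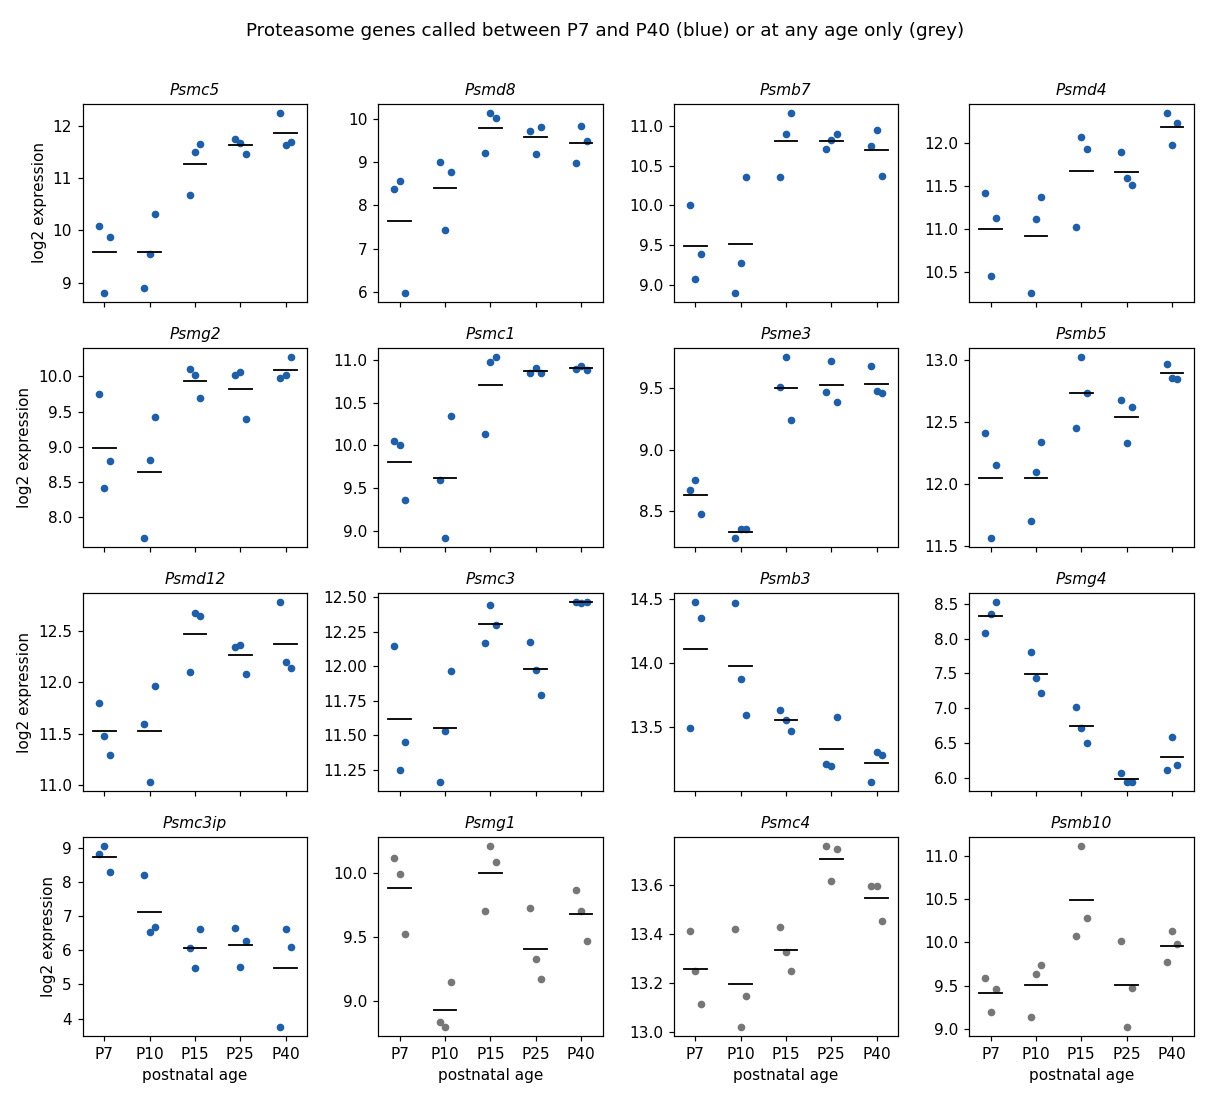
Log2 expression on every array by age (points: arrays, 3 an age; lines: age means) for the 13 genes called between P7 and P40 in blue and for Psmg1, Psmc4 and Psmb10, called at any age only, in grey. Each panel has its own axis. Psmc5 and Psme3 are higher on every array from P15 on than on any array of P7 or P10, and Psmg4 is lower on every array of P15, P25 and P40 than on any of P7 or P10.

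Of the 3 tested activators, 1 rose and 2 did not pass. Psme3, which encodes the nuclear activator PA28 gamma, read 8.67, 8.76 and 8.48 at P7, 8.29, 8.35 and 8.36 at P10, 9.51, 9.75 and 9.24 at P15, 9.47, 9.72 and 9.39 at P25, and 9.68, 9.47 and 9.46 at P40. No array of P15 or later overlapped an array of P7 or P10 (P40 against P7 1.87-fold, log2 0.90, SE 0.22, limma adjusted p = 0.00357). Its second probe set averaged 4.42 at P7, under the limit of 5, and the mean of all its probe sets, at 0.55, did not pass. Psme1, which encodes PA28 alpha, read 10.33, 9.94 and 9.96 at P7, 9.61, 10.74 and 10.90 at P15, 9.42, 9.06 and 8.98 at P25 and 8.51, 9.99 and 9.41 at P40. Its difference of -0.77 (SE 0.39, limma adjusted p = 0.119) did not pass and the ages overlapped. It was called lower with either rescaling of the arrays, with the actin covariate and without P40 replicate 2. Psme4, which encodes PA200, gave -0.19 (SE 0.23). Psme2 shares its probe set with Psme2b, so that no value can be given to either gene alone. That probe set went from a mean of 8.77 at P7 to 7.56 at P10, then to 7.90, 7.87 and 8.75 at the later ages.

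Psmf1, the inhibitor PI31, read 8.71, 7.61 and 8.33 at P7 and 8.06, 7.70 and 7.02 at P40 (log2 difference -0.62, SE 0.44, limma adjusted p = 0.257). The ages overlapped, and its second probe set gave 1.34.

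Among the 7 assembly chaperones, Psmg4 had the strongest call of the set. Psmg4, which helps build the alpha ring together with Psmg3, read 8.08, 8.35 and 8.53 at P7, 7.81, 7.43 and 7.22 at P10, 7.01, 6.72 and 6.49 at P15, 6.08, 5.93 and 5.94 at P25, and 6.11, 6.59 and 6.19 at P40. Each age from P7 to P25 lay wholly below the one before it. By P40 it was 4.07-fold lower (log2 -2.03, SE 0.28, limma adjusted p = 4.16e-05). The call was kept in all 26 alternatives, although the mean of its probe sets, 1 of them at background, gave -1.12. Its partner Psmg3 gave -0.20 (SE 0.27), with P40 arrays at 9.36, 9.37 and 9.36.

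Psmg1 and Psmg2 form the other pair of alpha-ring chaperones. Psmg2 read 9.75, 8.42 and 8.80 at P7, 7.71, 8.81 and 9.42 at P10, 10.11, 10.02 and 9.70 at P15 and 9.98, 10.03 and 10.27 at P40 (log2 difference P40 minus P7 1.10, SE 0.40, limma adjusted p = 0.0355). This was the weakest of the 10 rises. It did not pass in 11 of 26 alternatives, among them both rescalings of the arrays (0.88 and 0.89) and leaving out P7 replicate 2 (0.82), P7 replicate 3 (1.01), P40 replicate 1 (1.16), P40 replicate 2 (1.14) or P40 replicate 3 (1.01). With the replicate number as a block its adjusted p was 0.0573. Psmg1 read 10.12, 9.99 and 9.52 at P7, 8.84, 8.80 and 9.14 at P10, 9.70, 10.20 and 10.08 at P15 and 9.86, 9.70 and 9.47 at P40, so that all P10 arrays lay below those of the other 3 ages given, and P40 overlapped P7 (difference -0.20, SE 0.25). The base chaperones Psmd5, Psmd9 and Psmd10 gave -0.07, -0.40 and 1.01 and did not pass, with SE from 0.24 to 0.61. P10 replicate 1 of Psmd10 read 4.72, against 7.07 or more on every other array.

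Psmc3ip, which is no proteasome subunit, read 8.83, 9.04 and 8.30 at P7, 8.20, 6.52 and 6.67 at P10, and 3.76, 6.61 and 6.09 at P40 (9.43-fold lower, log2 -3.24, SE 0.64, limma adjusted p = 0.000899). P40 replicate 1 was under the limit of 5, and without it the difference was -2.37. Psme3ip1 gave 0.35 (SE 0.28) and did not pass.

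The timing of the rises was read from neighbouring ages. From P7 to P10 no member rose and Psmg1 fell (log2 -0.95, SE 0.25, limma adjusted p = 0.0456), where 2.37% of all genes rose and 1.23% fell. At an unadjusted p under 0.05, 0 members rose and 3 fell in that step. From P10 to P15, 8 members rose and 0 fell, where 8.57% of all genes rose and 2.79% fell. At an unadjusted p under 0.05 the counts were 16 and 1. As a mean of 8 genes, astrocyte markers read lower at P15 over the same step. That mean was 3.71 to 5.17 on the P10 arrays and 3.04 to 3.59 on the P15 arrays. Slc1a2 went from 8.44 to 4.07 and Gja1 from 6.94 to 3.152, while Gfap and Gjb6 were at or under 5 on all arrays. S100b and Aldh1l1 went the other way by age mean, from 3.49 to 4.76 and from 2.77 to 3.53. The part of these markers in the result was not tested. At P7 and P40 the mean of the 8 markers overlapped, at 3.16 to 3.87 and 2.93 to 3.58. From P15 to P25 no member was called (2.37% of all genes rose and 2.49% fell), and at an unadjusted p under 0.05 1 member rose and 6 fell. From P25 to P40 no member was called either (0.404% and 0.269% of all genes), with 2 and 2 at an unadjusted p under 0.05.

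The 8 genes that rose from P10 to P15 were Psme3, Psmc5, Psmg1, Psmd12, Psmb7, Psmc1, Psmc3 and Psmg2, and all but Psmg1 were also higher at P40 than at P7. Psme3 rose by 1.17 on the log2 scale (SE 0.22, limma adjusted p = 0.00749) and Psmc5 by 1.68 (SE 0.38, limma adjusted p = 0.0167). Psmc1, Psmc3 and Psmg2 were close to the threshold, with limma adjusted p from 0.0441 to 0.0495. Of the 45 members 35 were higher at P15 than at P10 (77.8%, against 62.3% of all genes). P15 replicates 2 and 3 were both above P15 replicate 1 in 26 members (57.8%, against 52.8% of all genes). Without both, only P15 replicate 1 was left at that age, so sizes alone are given. Psme3 then kept its size, 1.18, and Psmc5 gave 1.09. The others gave 1.46 for Psmg2, 0.85 for Psmb7, 0.78 for Psmg1, 0.62 for Psmc3, 0.57 for Psmd12 and 0.51 for Psmc1. With the cells covariate neither Psme3 nor Psmc5 was called (0.92 and 1.18). Psme3 did not pass with the mean of probe sets (0.79), nor Psmc5 with the actin covariate (1.23).

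Leaving out P15 replicate 2, P15 replicate 3, P10 replicate 1 or P10 replicate 2 left 1 rise in each case, which was Psme3. Of all genes tested, 1%, 2.11%, 2.75% and 2.65% then rose, against 8.57% with all arrays. Without P10 replicate 3 there were 12 rises, and 15.1% of all genes rose. The count was 5 without P25 replicate 2, P25 replicate 3 or any P40 array (6.51% to 7.77% of all genes). These arrays hold no value of the step. Leaving them out changed only the shared spread, its degrees of freedom and the adjustment over all genes. The call of Psmg1 from P7 to P10 was lost in 16 of 26 alternatives, among them leaving out any array of P10, P7 replicate 1 or P7 replicate 2, with differences from -1.06 to -0.83.

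Over all 5 ages, 16 members (35.6%) differed by the moderated F test, against 47.2% of all genes. They were the 13 genes above with Psmb10, Psmc4 and Psmg1. Arrays of P7 and P40 did not overlap in 14 members that were higher at P40 and in 5 that were lower, where 33.1% and 22.6% of all genes did so. By age mean, 17 members (37.8%, against 17.1% of all genes) were highest at P15, where 2 of the 3 arrays had low spiked controls. At P40 13 were highest (28.9%, against 25.1%), and 15 were lowest at P10 (33.3%, against 21.5%).

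Probe sets of the same gene did not always move alike. Of the 45 members 17 had several probe sets above 5 in at least 3 arrays, and in 10 of these the signs of the P40 minus P7 differences were not the same. For Psmd11, a lid subunit, 4 probe sets gave -1.004, -0.07, 0.70 and 1.41. For Psmc6, 3 probe sets gave -0.42, 0.53 and 0.85. For Psmb1 they gave 0.31 and -1.67, the second above 5 on only 3 arrays. Both probe sets agreed in sign for each called gene that had more than 1, namely Psmd4, Psme3, Psmg2 and Psmb3, although the second of Psme3 was above 5 on only 11 arrays. The others rest on 1 probe set above 5.

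**Figure D4:**
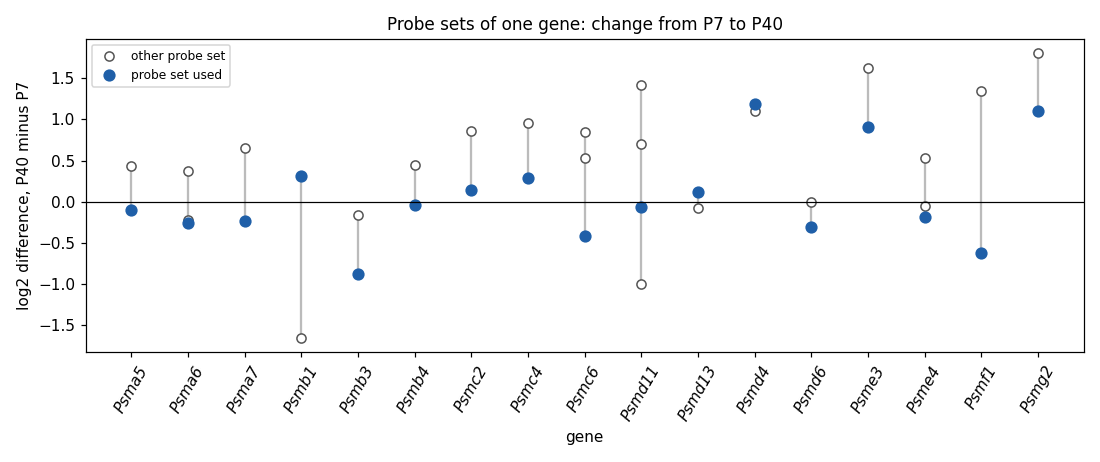
Log2 difference between P40 and P7 for each probe set above 5 in at least 3 arrays, for the 17 members with several (filled: the probe set used; open: others; the grey line joins the probe sets of 1 gene). The probe sets span -1.004 to 1.41 for Psmd11 and lie on both sides of 0 in 10 of the 17 genes.

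Other genes of the pathway moved both ways. Of 13 partners of the proteasome outside the symbol rule, 3 rose and 4 fell, where 27.5% and 17.6% of all genes tested did so. Uchl5, a deubiquitinase of the cap, read 8.88, 8.20 and 7.81 at P7 and 11.08, 9.94 and 10.25 at P40 (log2 difference 2.13, SE 0.34, limma adjusted p = 0.000171). Usp14, also a deubiquitinase bound to the cap, fell by 0.64 on the log2 scale (SE 0.19, limma adjusted p = 0.0148), but the mean of its probe sets gave 0.38, and the call was lost without P7 replicate 2 (-0.54) or P40 replicate 2 (-0.55). Pomp, which starts the assembly of the beta ring, read 10.79, 10.01 and 8.87 at P7 and 11.97, 11.17 and 11.23 at P40 (1.56, SE 0.45, limma adjusted p = 0.0113). Its call was lost without P7 replicate 3 (1.06) or P40 replicate 1 (1.31). Fbxo7, a ubiquitin ligase subunit that binds PI31, rose by 1.48 (SE 0.39, limma adjusted p = 0.00645), and Zfand2a had a difference of -0.66 (limma adjusted p = 0.0187). Leaving out P7 replicate 1 (-0.54), P40 replicate 1 (-0.64) or P40 replicate 2 (-0.58) ended the call of Zfand2a. The other falls were Ecpas, which binds the proteasome, and Sem1, a small lid subunit, at -1.02 and -0.47. Ecpas gave -0.25 with the mean of its probe sets and did not pass, nor did it without P7 replicate 1 (-0.87), P40 replicate 1 (-0.93) or P40 replicate 3 (-0.76). Sem1 did not pass in 13 of 26 alternatives, among them leaving out P7 replicate 1 or 2 (-0.48 and -0.38) or P40 replicate 1 or 2 (-0.39 and -0.43), and P10 replicate 2, P15 replicate 2, P25 replicate 2 or P25 replicate 3 at an unchanged difference.

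Of 11 genes for ubiquitin activation and shuttling, 2 rose and 2 fell (27.5% and 17.6% of all genes tested). The shuttle receptors Ubqln1 and Sqstm1 rose by 1.29 and 1.33 on the log2 scale (limma adjusted p = 0.00307 and 0.0116). With the mean of their probe sets they gave 0.60 and 0.63, and Ubqln1 did not pass. Rad23b, also a shuttle receptor, and Faf1 fell by 0.89 and 0.74 on the log2 scale (limma adjusted p = 0.0172 and 0.0426). The calls of Sqstm1 and Rad23b were lost without P40 replicate 2 (1.14 and -0.63), that of Rad23b also without P7 replicate 1 (-0.80), and that of Faf1 without P7 replicate 2 (-0.47), any P40 array (-0.84 to -0.69), P25 replicate 1 or P25 replicate 2.

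Nfe2l1 encodes Nrf1, the factor that induces proteasome genes when the complex is impaired. It read 8.40, 9.47 and 8.97 at P7 and 10.42, 10.35 and 10.41 at P40 (log2 difference 1.45, SE 0.30, limma adjusted p = 0.00113), without overlap. Of the 10 tested genes on the list of Nrf1 and Nrf2 regulators, 3 rose and 2 fell (27.5% and 17.6% of all genes tested). With the actin covariate, Nfe2l1, Stat3, Uchl5 and B2m were the only pathway rises still called, of 9, and Bach2 and Ecpas the only falls, of 8. The other genes called were the partner Mafg (1.73, SE 0.42) and Stat3 (1.03, SE 0.23), both higher, and the repressors Bach2 (-1.75, SE 0.37) and Bach1 (-1.82, SE 0.43), both lower. Their limma adjusted p ran from 0.00138 to 0.00407. Nfe2l2, which encodes Nrf2, was at or under 5 at each end, at 3.06 at P7 and 2.68 at P40.

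In class I antigen presentation, the process that the immunoproteasome serves, 5 of 10 genes were tested and 1 rose. Of all genes tested, 27.5% did. B2m, the light chain of class I molecules, read 5.74, 4.26 and 4.74 at P7 and 9.82, 9.13 and 10.45 at P40 (log2 difference 4.89, SE 0.53, limma adjusted p = 5.5e-06). Only 1 of the 3 P7 arrays was above 5, and with values under 5 set to 5 the difference was 4.55. The heavy chain genes H2-K1 and H2-D1 gave -0.51 and 0.20 and did not pass, and Tap1 and Tap2 were at or under 5. Markers of microglia, a cell type that expresses class I genes, averaged 2.95 to 3.18 on the P7 arrays, over 11 genes. On the P40 arrays they averaged 2.69 to 2.76. Which cells the B2m signal came from was not tested.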

How the data were processed

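Values of 45101 probe sets on 15 Affymetrix mouse whole-genome arrays were used as deposited, on the log2 scale. The authors computed them with GCRMA, per the submitters' processing notes, from RNA amplified in 2 rounds, per the labels' protocols, and its version is not given in the sources used here. Array output has no read depth, and 3 arrays an age limit the precision. Probe sets annotated to 1 gene (34945) gave 18193 genes, each read from its brightest probe set by mean level. Genes above 5 in at least 3 arrays (9663) were fitted with limma 3.58.1 (R 4.3.3): a means model over 5 ages, moderated with a trend, 10 residual degrees of freedom, two-sided, with Benjamini-Hochberg adjustment over all genes tested. A call is an adjusted p under 0.05. The script was tested on simulated data. No set test was run and members are not replicates.

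The members and lists were chosen with earlier results of these data known. Named were the called members, those with the largest and smallest differences of each role, the catalytic, inducible and activator genes, and the strongest calls of each pathway list. In all, 26 alternatives were tried: other scalings and filters, the mean of probe sets, covariates, array weights, a replicate block and leaving out arrays.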

Additional observations from a re-analysis of the deposited data

How the results depend on the processing

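Of the 13 members called between P7 and P40, Psmc5, Psmg4 and Psmc3ip kept the call in all 26 alternatives, 10 lost it in some, 7 moved by over 1.5 times in some, and none changed sign. The count of rises, 10, became 2 with the actin covariate and 4 with the cells covariate. Over all 9663 genes tested the 2662 rises became 1368 and 2079. The count of falls, 3, became 6 with equal array medians, 5 with no filter and 2 with the mean of probe sets. Over all genes tested the 1703 falls became 2202, 5523 (of 18193 genes) and 1656. The 8 rises from P10 to P15 became 5 with quantile normalization, 4 with equal array medians, 3 with no filter, 5 with the mean of probe sets, 1 with the actin covariate, 0 with the cells covariate, 18 with array weights and 0 without P15 replicates 2 and 3 together. The 16 members called at any age became 9 with the actin covariate, 8 with the cells covariate and 27 with array weights. Of all genes tested, 47.2% were called at any age, and 34.2%, 36.6% and 64.3% in these alternatives. In the pathway lists, 9 rises became 4 with the actin covariate. Their 8 falls became 12 with quantile normalization, 3 with the mean of probe sets and 2 with the actin covariate. The falls over all genes tested were then 2124, 1656 and 1284. The median difference of the 20S core, 0.06, became -0.16 with equal array medians and -0.17 with the actin covariate, while that of the 19S cap, 0.30, became 0.085 and 0.14. Leaving out 1 array at a time gave 6 to 12 rises, 3 to 5 falls and 1 to 12 rises from P10 to P15. Over all genes tested it gave 2168 to 2780 rises, 1322 to 1755 falls and 1% to 15.1% rising from P10 to P15. It also gave 4 to 9 falls in the pathway lists and core medians from -0.15 to 0.24. The median of all genes tested, 0.177 higher at P40, became 0.009 after quantile normalization and -0.040 after setting array medians equal. The causes of these changes were not tested, apart from the smaller number of arrays or the larger number of genes tested where the alternative sets it.

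Of the 32 members that were not called, 17 changed sign in some alternative, and none of them was called there. With quantile normalization Psma2 gave -0.053, Psma3 -0.010, Psmb4 0.035, Psmb6 -0.10, Psmd13 -0.10, Psmd14 -0.10 and Psmd3 -0.11. With equal array medians Psma2 gave -0.088, Psma3 -0.12, Psmb6 -0.20, Psmc2 -0.074, Psmd13 -0.10, Psmd14 -0.15 and Psmd3 -0.13. With the actin covariate Psma2 gave -0.18, Psma3 -0.15, Psma5 0.0054, Psmb6 -0.21, Psmd1 -0.14, Psmd11 0.14, Psmd13 -0.78, Psmd3 -0.14 and Psmg3 0.0094. With the cells covariate Psma2 gave -0.13, Psma3 -0.21, Psmb6 -0.10, Psmd11 0.15, Psmd13 -0.18 and Psmd14 -0.12, and with array weights Psmb6 gave -0.016. With the mean of probe sets Psma7 gave 0.21, Psmb1 -0.54, Psmb4 0.20, Psmc6 0.32, Psmd11 0.058, Psmf1 0.28 and the called partner Usp14 0.38. Leaving out 1 array at a time gave ranges of -0.23 to 0.33 for Psma2, -0.13 to 0.33 for Psma3, -0.17 to 0.16 for Psmb4, -0.15 to 0.13 for Psmb6, -0.29 to 0.073 for Psmd11, -0.082 to 0.42 for Psmd13, -0.068 to 0.13 for Psmd14, -0.0072 to 0.20 for Psmd3, -0.17 to 0.063 for Psmd5 and -0.42 to 0.033 for Psmg3.

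Deviations of same-numbered arrays of different ages correlated between -0.40 and 0.27 (median -0.07). Those of other pairs correlated between -0.35 and 0.52 (median 0.02). Whether arrays with the same replicate number shared a batch was not tested. A replicate block gave 9 rises, 3 falls and 5 rises from P10 to P15. Over all genes tested it gave 2517 rises, 1642 falls and 5.46% rising from P10 to P15.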
